A study of Mus musculus with 18 samples.

Results

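Naive pluripotency is the state of the mouse embryonic stem cell that resembles the early epiblast, and a network of transcription factors holds cells in it beside the core factors Oct4, Sox2 and Nanog. The data described here cover 10 genes of that network, Klf2, Klf4, Klf5, Tbx3, Esrrb, Tfcp2l1, Prdm14, Nr0b1, Nr5a2 and Zfp42, chosen by name as parts of that network, with earlier results of these data already known. All 10 were found by gene symbol among the 56551 genes of the deposited table, and all 10 passed the filter on low values. RNA was sequenced from mouse embryonic stem cells in 6 groups of 3 libraries. The groups are labelled Ring1a-KO, Ring1b-KO, Ring1a/b-dKO (a knockout of Ring1a and Ring1b together), Pcgf-4KO (Pcgf1/3/5/6-/-), Pcgf-6KO (all of Pcgf1, Pcgf2, Pcgf3, Pcgf4, Pcgf5 and Pcgf6 knocked out) and WT. The labels name no parent line, clone, culture medium, passage or day, and leave it unstated if replicate libraries are separate cultures, so p-values measure the spread between these libraries, which may be technical.

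In mouse embryonic stem cells the cytokine LIF acts through Stat3 on Klf4, Tfcp2l1 and Gbx2. Wnt signalling relieves repression by Tcf7l1 of Esrrb, Tfcp2l1, Klf2 and other targets, and Fgf and Erk signalling moves cells out of the naive state towards the formative state. Polycomb repressive complex 1 (PRC1) ubiquitylates a core histone through a catalytic subunit, which is either Ring1a, encoded by Ring1, or Ring1b, encoded by Rnf2, and keeps developmental genes silent. Each PRC1 complex holds a single Pcgf protein. Pcgf2 and Pcgf4 (gene Bmi1) belong to canonical PRC1, and Pcgf1, Pcgf3, Pcgf5 and Pcgf6 to variant PRC1.

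No chromatin mark or binding was measured in these samples. The promoters of 4 members are shown because variant PRC1 with Pcgf1 is brought to CpG-rich DNA by Kdm2b, and because these genes took different courses across the knockouts. Each is the stretch of 250 bases before the annotated start, 5′ to 3′ on the gene's own strand, from RefSeq on GRCm38.p6, with CG dinucleotides in capitals.
Klf4 (chr4:55532476-55532725, minus strand): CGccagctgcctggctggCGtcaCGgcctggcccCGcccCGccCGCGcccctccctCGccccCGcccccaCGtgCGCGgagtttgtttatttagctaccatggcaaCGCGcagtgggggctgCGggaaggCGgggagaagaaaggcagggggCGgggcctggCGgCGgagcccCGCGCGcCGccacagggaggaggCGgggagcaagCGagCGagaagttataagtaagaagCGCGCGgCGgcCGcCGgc
Klf2 (chr8:72318812-72319061, plus strand): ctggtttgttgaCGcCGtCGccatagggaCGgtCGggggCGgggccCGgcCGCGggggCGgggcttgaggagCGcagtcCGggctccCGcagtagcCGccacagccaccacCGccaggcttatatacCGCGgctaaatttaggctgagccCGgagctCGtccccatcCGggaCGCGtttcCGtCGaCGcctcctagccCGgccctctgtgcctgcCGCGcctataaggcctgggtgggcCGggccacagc
Tfcp2l1 (chr1:118627695-118627944, plus strand): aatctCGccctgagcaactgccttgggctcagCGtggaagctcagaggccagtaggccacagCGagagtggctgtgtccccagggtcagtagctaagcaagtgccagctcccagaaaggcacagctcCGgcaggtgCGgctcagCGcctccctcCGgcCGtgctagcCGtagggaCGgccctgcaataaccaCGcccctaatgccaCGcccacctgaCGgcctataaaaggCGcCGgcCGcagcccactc
Nr0b1 (chrX:86191525-86191774, plus strand): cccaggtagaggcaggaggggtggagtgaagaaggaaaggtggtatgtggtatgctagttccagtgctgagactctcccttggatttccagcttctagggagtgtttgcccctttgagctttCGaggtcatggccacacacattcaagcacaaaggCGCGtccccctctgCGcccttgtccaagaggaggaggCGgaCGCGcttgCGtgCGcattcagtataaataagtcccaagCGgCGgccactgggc

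Of the 10 members, 7 had an entry among the 32851 promoters of that table. Klf4 had 32 CG dinucleotides and Klf2 had 29, more than 95.4% and 93.2% of all promoters, whose median was 6. Tfcp2l1 had 16, Nr0b1 11 and Zfp42 9, while both starts of Esrrb, at 6 and 3, and of Nr5a2, at 6 and 2, were at or under the median. Klf4 and Klf2 thus have the most CpG-rich promoters of the genes matched, and, as given below, they were called in opposite directions in Ring1a-KO, Ring1b-KO and Ring1a/b-dKO against WT. In the Pcgf groups, which lack Pcgf1 by their labels, both were called higher (Pcgf-4KO) or both lower (Pcgf-6KO). The letters TTCNNNGAA, a Stat core on both strands, were found at 1 of the Esrrb starts, against 7.02% of all promoters. The letters CACCC, a core bound by Klf proteins, were found on either strand in Klf2, Nr0b1, Zfp42, both Esrrb starts and 1 Nr5a2 start, against 52% of all promoters, and AAGGTCA, a core shared by Esrrb and Nr5a2 proteins, was in none of these windows, against 4.08%.

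Expression is given in TPM (each transcript's share of the library after division by its length, scaled to 1000000), which keeps no read counts, so depth is unknown. The 8 defining markers of embryonic stem cells fixed for this description, with Pou5f1, Sox2 and Nanog among them, were each at 1 TPM or more in every group. Their summed level was 2800 to 3044 TPM in Ring1a-KO, 3176 to 3260 in Ring1b-KO, 1591 to 1632 in Ring1a/b-dKO, 1753 to 1758 in Pcgf-4KO and 908 to 939.9 in Pcgf-6KO, against 3026 to 3056 in WT. In Ring1b-KO the sum hides 6 of the 8 called lower and 2 higher, against 17.1% and 34.7% of tested genes. Nanog, 1 of the higher, had a mean of 387 TPM there, against 108 TPM in WT. By transcript level, 7 of the 14 pairs of a knockout and a gene it targets were called lower, 3 higher and 4 not called, and Ring1 in Ring1a-KO, at 4.05 ± 1.31 TPM against 7.21 ± 0.182 TPM in WT (a TPM is given as mean ± SD of 3 libraries throughout), was among those not called (adjusted p = 0.0705, limma), as was Ring1 in Ring1a/b-dKO, at 6.09 ± 3.33 TPM. The higher ones were Pcgf5 in Pcgf-4KO (14.5 ± 1.24 TPM) and Pcgf-6KO (22.1 ± 1.11 TPM), against 9.55 ± 0.555 TPM in WT, and Bmi1 in Pcgf-6KO (15.6 ± 1.09 TPM), against 1.6 ± 0.824 TPM in WT. Loss of an exon cannot be read from a TPM per gene, so the groups are called by their labels. Small RNA genes took 2.88% and 1.32% of TPM in Ring1a-KO replicates 2 and 3, against 0.21% to 0.666% in the other 16 libraries. The summed level of 4 Y-linked genes was 0.09 to 0.27 TPM in Ring1a-KO, 7.54 to 8.08 in Ring1b-KO, 0.05 to 0.39 in Ring1a/b-dKO, 0.08 to 0.1 in Pcgf-4KO and 41.2 to 53.2 in Pcgf-6KO, against 67.2 to 72.6 in WT. Its part in the results below was not tested.

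Changes below are log2 fold changes of TPM + 1 with their SE from a limma model over all 18 libraries, where a call means an adjusted p (limma, Benjamini-Hochberg over the 17842 genes tested) under 0.05. Levels of the members covered a wide range. In WT, Klf2 had the highest level of the 10, above 97.8% of tested genes, followed by Esrrb, Nr0b1, Zfp42, Klf5, Tfcp2l1, Nr5a2, Klf4, Tbx3 and Prdm14, which was above 37.8%. The WT libraries of Nr5a2 overlapped those of Tfcp2l1 and those of Klf4, and the WT libraries of Tbx3 and Prdm14 overlapped. Klf2 and Esrrb kept the first and second rank in all 6 groups. From the lowest to the highest group mean the members spanned a median of 1.78 on the log2 scale, against 1.01 for all tested genes, and 8 of the 10 were over that median. Group means were highest in Ring1b-KO for 4 members and in Pcgf-4KO for 3, and lowest in Pcgf-6KO for 4 and in Ring1a-KO for 3. Ordered by mean, 37 of the 50 neighbouring pairs of groups had libraries that did not overlap. These counts of groups and pairs were not made over all tested genes, so they describe the members only. In the comparisons of 2 groups below, 38.5% to 74% of tested genes had libraries that did not overlap.

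**Figure D1:**
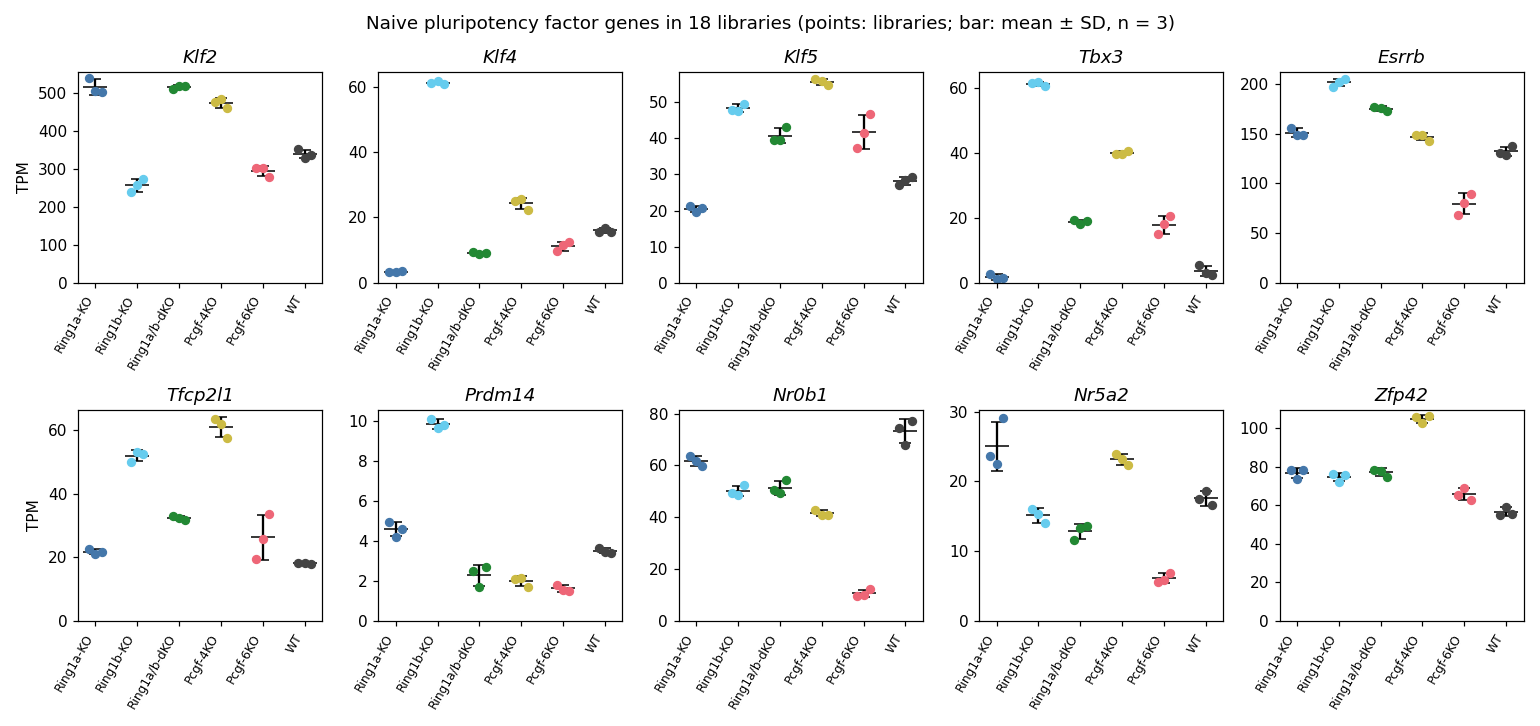
TPM of the 10 genes in each of the 18 libraries, with 1 panel per gene and its own axis from 0. Points are libraries and bars are the mean ± SD of 3 libraries per genotype. Klf4, Tbx3, Esrrb and Prdm14 peak in Ring1b-KO, and Nr0b1 is highest in WT.

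The Krüppel-like factors Klf2, Klf4 and Klf5 bind GC-rich sites through zinc fingers and can partly stand in for each other in keeping stem cells naive. Klf4 (ENSMUSG00000003032, GRCm38 chromosome 4, 55527143 to 55532466, minus strand), a direct target of Stat3, had the second largest span of the 10 and each neighbouring pair of groups apart. It was at 3.13, 3.3 and 3.58 TPM in Ring1a-KO, 61.18, 61.71 and 60.91 TPM in Ring1b-KO, and 9.37, 8.79 and 9.21 TPM in Ring1a/b-dKO, against 15.68, 16.8 and 15.63 TPM in WT. In the Pcgf groups it was at 24.97, 25.68 and 22.32 TPM in Pcgf-4KO and 9.7, 11.42 and 12.44 TPM in Pcgf-6KO. Klf4 was thus 18.4 times as high in the highest group as in the lowest, and the 2 single knockouts lay on opposite sides of WT. Against WT it fell in Ring1a-KO (-1.97 ± 0.08, adjusted p = 1.96e-10), in Ring1a/b-dKO (-0.75 ± 0.08, adjusted p = 4.39e-07) and in Pcgf-6KO (-0.49 ± 0.08, adjusted p = 3.2e-05). Rises were called in Ring1b-KO, at 1.87 ± 0.08 (adjusted p = 2.74e-11), and with Pcgf-4KO at 0.57 ± 0.08 (adjusted p = 8.9e-06). The span of Klf4 was larger than that of 98.5% of tested genes.

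Klf2 (ENSMUSG00000055148, chromosome 8, 72319033 to 72321656, plus strand), the Krüppel-like factor most closely tied to inhibition of Erk signalling, took another course. It was at 540.24, 504.11 and 503.1 TPM in Ring1a-KO, 238.54, 256.07 and 273.41 TPM in Ring1b-KO, and 510.93, 517.86 and 519.02 TPM in Ring1a/b-dKO, against 350.82, 329.42 and 335.49 TPM in WT. Pcgf-4KO held 476.22, 484.41 and 459.97 TPM and Pcgf-6KO 302.9, 301.67 and 278.53 TPM. Ring1a-KO and Ring1a/b-dKO overlapped at the top, and the other neighbours were apart. Klf2 rose in Ring1a-KO (0.61 ± 0.05, adjusted p = 3.94e-07), Ring1a/b-dKO (0.61 ± 0.05, adjusted p = 2.92e-08) and Pcgf-4KO (0.48 ± 0.05), and fell in Ring1b-KO (-0.40 ± 0.05, adjusted p = 5.19e-06) and Pcgf-6KO (-0.20 ± 0.05).

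Klf5 (ENSMUSG00000005148, chromosome 14, 99298691 to 99315036, plus strand), also needed for the trophectoderm of the blastocyst, was at 21.25, 19.49 and 20.62 TPM in Ring1a-KO, 47.88, 47.68 and 49.55 TPM in Ring1b-KO, and 39.59, 39.56 and 43.08 TPM in Ring1a/b-dKO, against 27.18, 28.33 and 29.36 TPM in WT. Levels were 56.44, 55.88 and 54.65 TPM in Pcgf-4KO and 37.32, 41.36 and 46.69 TPM in Pcgf-6KO. Pcgf-6KO overlapped Ring1a/b-dKO, and the other neighbours were apart. Klf5 fell in Ring1a-KO (-0.45 ± 0.07, adjusted p = 0.000143) and rose in the 4 other knockouts, by 0.51 ± 0.07 to 0.95 ± 0.07.

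Because of these courses the balance of the 3 genes moved more than their sum. Per 100 TPM of Klf2 in the same library, Klf4 was at 0.649 ± 0.0663 TPM in Ring1a-KO, 24 ± 1.69 in Ring1b-KO, 1.77 ± 0.0685 in Ring1a/b-dKO, 5.13 ± 0.244 in Pcgf-4KO and 3.82 ± 0.633 in Pcgf-6KO, against 4.74 ± 0.323 in WT (SD, n = 3 each). The sum of Klf2, Klf4 and Klf5 was 540 ± 21.7 TPM in Ring1a-KO, 366 ± 18.1 in Ring1b-KO, 566 ± 5.72 in Ring1a/b-dKO, 554 ± 14.9 in Pcgf-4KO and 347 ± 8.69 in Pcgf-6KO, against 383 ± 9.79 in WT. Klf2 made up most of that sum in each group.

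Tbx3 (ENSMUSG00000018604, chromosome 5, 119670669 to 119684724, plus strand), a T-box factor that acts downstream of PI3K signalling in stem cells and is also used in endoderm, heart and limb, had the largest span. It was at 2.67, 1.21 and 1.3 TPM in Ring1a-KO, 61.47, 61.89 and 60.55 TPM in Ring1b-KO, and 19.19, 18.22 and 18.9 TPM in Ring1a/b-dKO, against 5.37, 2.96 and 2.4 TPM in WT. In the Pcgf groups it was at 39.84, 39.72 and 40.77 TPM in Pcgf-4KO and 14.97, 17.97 and 20.65 TPM in Pcgf-6KO. The Ring1a-KO and WT libraries overlapped, and so did Ring1a/b-dKO and Pcgf-6KO, while 4 knockouts were above WT in every library. Tbx3 rose by 3.82 ± 0.20 in Ring1b-KO (adjusted p = 6.19e-10), 2.16 ± 0.20 in Ring1a/b-dKO (adjusted p = 1.78e-07), 3.22 ± 0.20 in Pcgf-4KO (adjusted p = 1.98e-09) and 2.09 ± 0.20 in Pcgf-6KO (adjusted p = 1.82e-07). In Ring1a-KO it was called lower at -0.73 ± 0.20 (adjusted p = 0.0168). That call did not hold on leaving out replicate 1 of WT (-0.47), or replicate 2 (-0.60) or 3 (-0.63) of Ring1a-KO. Tbx2, its nearest relative and also a cardiac and limb factor, was at 0.0533 ± 0.0351 TPM in Ring1a-KO, 0.503 ± 0.118 in Ring1b-KO, 4.86 ± 0.392 in Ring1a/b-dKO, 1.86 ± 0.157 in Pcgf-4KO and 4.6 ± 0.499 in Pcgf-6KO, against 0.203 ± 0.0513 in WT, so its highest groups were not those of Tbx3.

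Esrrb (ENSMUSG00000021255, chromosome 12, 86361117 to 86521628, plus strand), an orphan nuclear receptor repressed by Tcf7l1 and released by Wnt signalling, was at 156.2, 149 and 148.57 TPM in Ring1a-KO, 197.45, 202.47 and 205.02 TPM in Ring1b-KO, and 176.92, 176.22 and 172.91 TPM in Ring1a/b-dKO, against 130.29, 128.82 and 137.34 TPM in WT. Levels were 148.98, 149.06 and 142.99 TPM in Pcgf-4KO and 68.4, 80.5 and 89.32 TPM in Pcgf-6KO, the group below WT. Esrrb rose in Ring1b-KO (0.61 ± 0.07, adjusted p = 1.87e-06) and Ring1a/b-dKO (0.41 ± 0.07, adjusted p = 6.56e-05) and fell in Pcgf-6KO (-0.74 ± 0.07, adjusted p = 7.35e-08). The rise in Ring1a-KO, 0.19 ± 0.07 (adjusted p = 0.0479), was lost on leaving out any of the 6 libraries compared (adjusted p of 0.0571 to 0.135, changes of 0.17 to 0.22), and Esrrb was not called in Pcgf-4KO (0.15 ± 0.07, adjusted p = 0.0555). With median ratio scaling Esrrb was not called in Ring1a/b-dKO, at 0.04, and was called lower in Pcgf-4KO, at -0.17.

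Tfcp2l1 (ENSMUSG00000026380, chromosome 1, 118627945 to 118685168, plus strand), a grainyhead-family factor on which LIF and Wnt signals converge, was at 22.45, 20.97 and 21.8 TPM in Ring1a-KO, 49.96, 53.18 and 52.47 TPM in Ring1b-KO, and 32.96, 32.36 and 31.8 TPM in Ring1a/b-dKO, against 18.06, 18.26 and 17.92 TPM in WT. Pcgf-4KO held 63.32, 61.9 and 57.57 TPM, the highest level, and Pcgf-6KO 19.49, 25.88 and 33.5 TPM, with a spread that overlapped Ring1a/b-dKO and Ring1a-KO. WT was below each other library. Tfcp2l1 rose in Ring1b-KO (1.47 ± 0.12, adjusted p = 8.33e-08), Ring1a/b-dKO (0.81 ± 0.12, adjusted p = 2.81e-05), Pcgf-4KO (1.70 ± 0.12, adjusted p = 7.86e-09) and Pcgf-6KO (0.48 ± 0.12, adjusted p = 0.00208), and was not called in Ring1a-KO (0.25 ± 0.12, adjusted p = 0.154). With median ratio scaling and with quantile normalization the Pcgf-6KO change was 0.13 and 0.15 and not called.

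Nr5a2 (ENSMUSG00000026398, chromosome 1, 136842571 to 136960448, minus strand), a nuclear receptor that binds regulatory DNA of Pou5f1, was at 23.66, 22.44 and 29.04 TPM in Ring1a-KO, 16.03, 15.34 and 13.99 TPM in Ring1b-KO, and 11.57, 13.36 and 13.59 TPM in Ring1a/b-dKO, against 17.44, 18.69 and 16.61 TPM in WT. It was at 23.88, 23.19 and 22.38 TPM in Pcgf-4KO and 5.53, 5.93 and 6.93 TPM in Pcgf-6KO, the lowest group. Nr5a2 rose in Ring1a-KO (0.48 ± 0.10, adjusted p = 0.00211) and in Pcgf-4KO (0.38 ± 0.10, adjusted p = 0.00285), and fell in Ring1a/b-dKO (-0.43 ± 0.10, adjusted p = 0.00117) and Pcgf-6KO (-1.39 ± 0.10, adjusted p = 3.49e-09). In Ring1b-KO it was not called (-0.21 ± 0.10, adjusted p = 0.0894) but was called at -0.37 with median ratio scaling and -0.31 with quantile normalization, and the Pcgf-4KO call was lost with these, at 0.07 and 0.08.

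Nr0b1 (ENSMUSG00000025056, chromosome X, 86191764 to 86195947, plus strand), also called Dax1, is an atypical nuclear receptor without a DNA-binding domain that binds Oct4 protein. It was at 63.75, 61.87 and 59.92 TPM in Ring1a-KO, 49.42, 48.49 and 52.52 TPM in Ring1b-KO, and 50.34, 49.41 and 54.5 TPM in Ring1a/b-dKO, against 74.41, 68.09 and 77.24 TPM in WT. Levels were 42.88, 40.95 and 41.02 TPM in Pcgf-4KO and 9.65, 9.95 and 12.15 TPM in Pcgf-6KO, so each knockout library was below each WT library. Nr0b1 fell in Ring1b-KO (-0.54 ± 0.07, adjusted p = 1.5e-05), Ring1a/b-dKO (-0.50 ± 0.07, adjusted p = 1.69e-05), Pcgf-4KO (-0.80 ± 0.07, adjusted p = 1.07e-07) and most in Pcgf-6KO (-2.68 ± 0.07, adjusted p = 5e-14). In Ring1a-KO the fall of -0.24 ± 0.07 (adjusted p = 0.0257) did not stay called on leaving out replicate 1 (-0.23) or 3 (-0.20) of WT, or replicate 2 (-0.24) or 3 (-0.22) of Ring1a-KO.

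Prdm14 (ENSMUSG00000042414, chromosome 1, 13113457 to 13127163, minus strand), a repressor of Fgf receptor and de novo DNA methyltransferase genes that is also needed for primordial germ cells, had the lowest WT level. It was at 4.93, 4.22 and 4.59 TPM in Ring1a-KO, 10.11, 9.64 and 9.79 TPM in Ring1b-KO, and 2.48, 1.7 and 2.68 TPM in Ring1a/b-dKO, against 3.65, 3.44 and 3.42 TPM in WT. In the Pcgf groups it was at 2.1, 2.16 and 1.69 TPM in Pcgf-4KO and 1.81, 1.54 and 1.52 TPM in Pcgf-6KO, and these groups and Ring1a/b-dKO overlapped one another. Prdm14 rose in Ring1b-KO (1.27 ± 0.11, adjusted p = 1.13e-07) and fell in Ring1a/b-dKO (-0.47 ± 0.11, adjusted p = 0.00134), Pcgf-4KO (-0.60 ± 0.11, adjusted p = 0.000161) and Pcgf-6KO (-0.78 ± 0.11, adjusted p = 8.48e-06). In Ring1a-KO it was not called, at 0.31 ± 0.11 (adjusted p = 0.0517), but was called with a pseudocount of 5 TPM (0.17), with nuclear protein-coding genes only (0.35) and without a trend or with a replicate block (0.31 in both). At these levels the added 1 TPM makes the fold changes smaller than the ratios of TPM.

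Zfp42 (ENSMUSG00000051176, chromosome 8, 43295063 to 43306980, minus strand), known as Rex1, is a zinc finger protein used as a reporter of naive cells. It was at 78.44, 73.44 and 78.26 TPM in Ring1a-KO, 76.24, 72.01 and 75.64 TPM in Ring1b-KO, and 78.5, 77.99 and 74.79 TPM in Ring1a/b-dKO, against 55.05, 59.31 and 55.59 TPM in WT. It was at 105.67, 102.63 and 106.14 TPM in Pcgf-4KO and 65.41, 68.98 and 62.7 TPM in Pcgf-6KO. Every knockout library was above each WT library, and the 3 Ring1 groups overlapped. Its rises were 0.43 ± 0.04 in Ring1a-KO, 0.39 ± 0.04 in Ring1b-KO, 0.44 ± 0.04 in Ring1a/b-dKO, 0.88 ± 0.04 in Pcgf-4KO (adjusted p = 1.44e-10) and 0.21 ± 0.04 in Pcgf-6KO (adjusted p = 0.000516). The direction in Pcgf-6KO turned with the scaling, to -0.15 and called lower with median ratio scaling and to -0.04 with quantile normalization, and in Ring1a/b-dKO the change with median ratio scaling was 0.08 and not called.

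**Figure D2:**
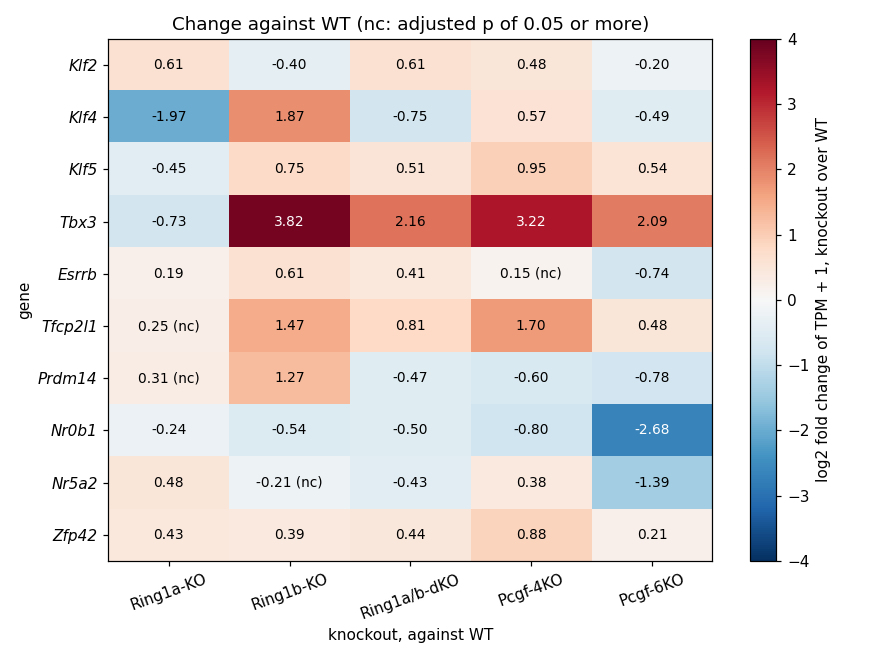
Log2 fold change of TPM + 1 of each gene (rows) in the 5 knockouts (columns) over WT, with the value in each cell and nc where the adjusted p was 0.05 or more. Tbx3 reaches 3.82 in Ring1b-KO, Nr0b1 is negative in all 5 columns, and Klf4 runs from -1.97 in Ring1a-KO to 1.87 in Ring1b-KO.

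In Ring1a-KO against WT, 4 of the 10 members were called higher, 4 lower and 2 not called, where 23.1% of all tested genes were called, 12.3% higher and 10.8% lower. The member median was 0.22, against 0.01 over all tested genes. The libraries of 9 members did not overlap with WT, Tbx3 being the other, against 38.5% of tested genes. On leaving out 1 library of the comparison, 5 to 7 members were called, with 5 when WT replicate 1 or Ring1a-KO replicate 2 or 3 was the one left out. When both of these Ring1a-KO libraries were dropped, Klf2, Klf4, Klf5, Nr5a2 and Zfp42 were called, with the remaining library taken to be as variable as the other groups. In Ring1b-KO 7 members were called higher, 2 lower and 1 not called, where 51.8% of tested genes were called, 34.7% higher and 17.1% lower. The member median there was 0.68, against 0.13 over all tested genes, and all 10 members had libraries apart from WT, against 62.1% of tested genes.

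In Ring1a/b-dKO 6 members were called higher and 4 lower, where 64.4% of tested genes were called, 48.6% higher and 15.8% lower, and a median of 0.42 against 0.28 over all tested genes. For Pcgf-4KO the counts were 7 higher, 2 lower and 1 not called, with 65% of tested genes called, 47.1% higher and 17.9% lower, and medians of 0.53 for the members and 0.25 for all. Pcgf-6KO had 4 higher and 6 lower, with 74.2% of tested genes called, 51.7% higher and 22.5% lower, and medians of -0.35 for the members and 0.33 for all. With so many genes called, the number of members called in these 3 groups says little by itself, and a change near the median of all genes depends on the scaling, as given for Esrrb and Zfp42. In each of the 3, all 10 members had libraries apart from WT, where 71.8%, 71.6% and 74% of tested genes did. The 5 comparisons share the WT libraries. Across the 5 knockouts 6 of the 10 members were called against WT in all 5, against 10.7% of tested genes, and 7 were called higher in at least 1 knockout and lower in another, against 17.3%. Tbx3 and Nr0b1 among the 6, and Tbx3 among the 7, depend on Ring1a-KO calls lost on leaving out single libraries. In RNA from whole cultures, fewer cells expressing a gene and less RNA per cell cannot be told apart.

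Ring1b-KO and Ring1a-KO, which by their labels lack different catalytic subunits of PRC1, were also compared directly. In Ring1b-KO, 6 members were higher and 3 lower than in Ring1a-KO, with 51% of tested genes called, 33.9% higher and 17.1% lower. The libraries of 9 members did not overlap, against 57.7% of tested genes. Klf4 was 3.85 ± 0.08 higher in Ring1b-KO (adjusted p = 1.18e-14), Tbx3 4.55 ± 0.20 (adjusted p = 7.8e-11), Tfcp2l1 1.22 ± 0.12, Klf5 1.20 ± 0.07 and Prdm14 0.96 ± 0.11. Klf2 was lower there by -1.01 ± 0.05 (adjusted p = 1.89e-10), Nr5a2 by -0.69 ± 0.10 and Nr0b1 by -0.30 ± 0.07. Zfp42, with 74.6 ± 2.29 TPM in Ring1b-KO and 76.7 ± 2.84 TPM in Ring1a-KO, was not called (-0.04 ± 0.04, adjusted p = 0.489), but was called lower at -0.18 with median ratio scaling.

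Ring1a/b-dKO against Ring1b-KO, which by the labels sets the loss of both catalytic subunits against that of Ring1b alone, had 6 members lower, 1 higher and 3 not called. Of tested genes 59.9% were called, 41.1% higher and 18.8% lower. The libraries of 8 members did not overlap, against 67.9% of tested genes. Klf4 was at 9.12 ± 0.3 TPM in Ring1a/b-dKO, against 61.3 ± 0.407 TPM in Ring1b-KO (-2.62 ± 0.08, adjusted p = 6.96e-13). Prdm14 was at 2.29 ± 0.518 TPM in Ring1a/b-dKO, against 9.85 ± 0.24 TPM in Ring1b-KO (-1.74 ± 0.11, adjusted p = 3.09e-09). Tbx3 fell by -1.66 ± 0.20 and Tfcp2l1 by -0.66 ± 0.12, and Klf2 was higher in Ring1a/b-dKO by 1.01 ± 0.05 (adjusted p = 1.84e-10). Esrrb fell by -0.20 ± 0.07 (adjusted p = 0.0169), a call lost without Ring1b-KO replicate 3 (-0.19, adjusted p = 0.0502). Nr5a2, not called at -0.22 ± 0.10 (adjusted p = 0.0609), was called without that library (-0.27). Nr0b1 (0.04 ± 0.07) and Zfp42 (0.05 ± 0.04) were not called either. With median ratio scaling all 3 were called lower, Nr5a2 at -0.40, Nr0b1 at -0.15 and Zfp42 at -0.14, and Nr5a2 was also called under quantile normalization (-0.48) and when the fit held nuclear protein-coding genes alone (-0.28).

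The interaction term sets the change in Ring1a/b-dKO against the added log2 changes of Ring1a-KO and Ring1b-KO. It was called for 9 of the 10 members, 7 below the sum and 2 above it, with 48.7% of tested genes called, 33.2% above and 15.5% below. The median was -0.52 over the members and 0.15 over all tested genes. Prdm14 was furthest from the sum, at -0.47 in Ring1a/b-dKO where the single knockouts add to 1.58 (difference -2.04 ± 0.15, adjusted p = 5.13e-08). Tfcp2l1 was at 0.81 against a sum of 1.72 (-0.92 ± 0.17, adjusted p = 0.000421), Tbx3 at 2.16 against 3.09 (-0.92 ± 0.29, adjusted p = 0.0153, but -0.69 and not called with a pseudocount of 0.1 TPM), and Nr5a2 at -0.43 against 0.28 (-0.70 ± 0.14, adjusted p = 0.000589). Klf4 was at -0.75 against -0.10 (-0.65 ± 0.11, adjusted p = 0.000163). Klf2 was above its sum, at 0.61 against 0.20 (0.40 ± 0.07, adjusted p = 0.000187). Klf5, at 0.51 against 0.30, was not called (0.21 ± 0.09, adjusted p = 0.0776), but was in a fit of only the groups compared (adjusted p = 0.0264). For Nr0b1, at -0.50 against -0.78, the difference of 0.27 ± 0.10 (adjusted p = 0.0363) did not stay called on leaving out replicate 1 or 3 of WT, 2 or 3 of Ring1a-KO, 1 or 2 of Ring1b-KO, or 3 of Ring1a/b-dKO, at 0.23 to 0.27, nor with median ratio scaling (0.12) or quantile normalization (0.14).

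**Figure D3:**
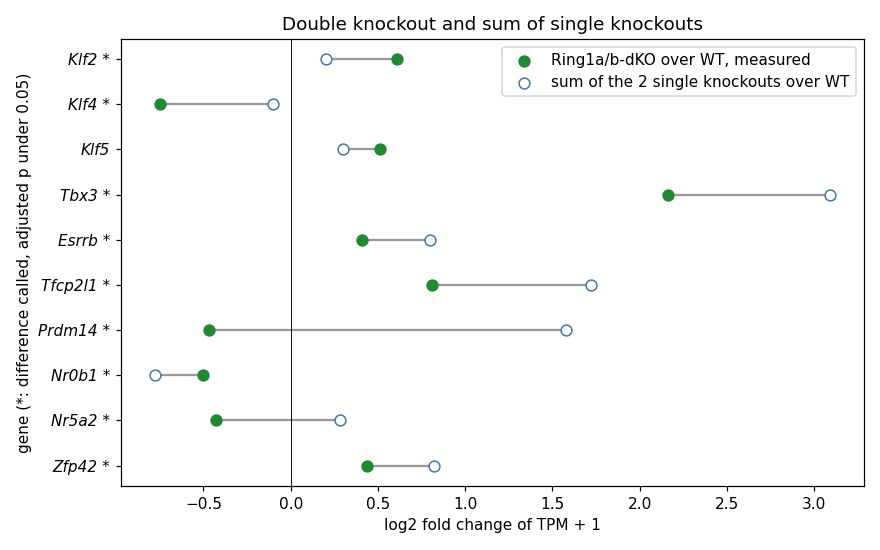
Log2 fold change of TPM + 1 over WT (x axis) of each gene (y axis), measured in Ring1a/b-dKO (filled) and as the sum of the Ring1a-KO and Ring1b-KO changes (open). An asterisk marks a called difference. The filled point lies left of the open point for 7 of the genes with an asterisk, by most for Prdm14, and right of it for Klf2 and Nr0b1.

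Pcgf-6KO lacks, by its label, the canonical PRC1 proteins Pcgf2 and Pcgf4 in addition to the 4 missing in Pcgf-4KO. The groups also differed in Pcgf6 transcript, at 10.6 ± 0.78 TPM in Pcgf-6KO and 0.0567 ± 0.0513 TPM in Pcgf-4KO. The Y-linked sum was 41.2 to 53.2 TPM in Pcgf-6KO and 0.08 to 0.1 TPM in Pcgf-4KO. The part of these differences in the members' levels was not tested. Against Pcgf-4KO, 9 members were lower in Pcgf-6KO and Prdm14 was not called (-0.18 ± 0.11, adjusted p = 0.166; called lower at -0.45 with quantile normalization), with 52.8% of tested genes called, 28.8% higher and 24% lower. The libraries of 9 members did not overlap, against 56% of tested genes. The member median was -0.97, against 0.03 over all tested genes. Nr0b1 was at 10.6 ± 1.37 TPM in Pcgf-6KO, against 41.6 ± 1.09 TPM in Pcgf-4KO (-1.89 ± 0.07, adjusted p = 2.64e-11), and Nr5a2 at 6.13 ± 0.721 TPM against 23.2 ± 0.751 TPM (-1.76 ± 0.10, adjusted p = 1.15e-09). Tfcp2l1 fell by -1.21 ± 0.12, Tbx3 by -1.13 ± 0.20, Klf4 by -1.06 ± 0.08, Esrrb by -0.89 ± 0.07, Klf2 by -0.68 ± 0.05, Zfp42 by -0.67 ± 0.04 and Klf5 by -0.41 ± 0.07, and these 9 genes kept direction and call under each scaling, filter and left-out library tried. The Pcgf-6KO libraries were the more spread of the 2 groups, with a coefficient of variation of 26.7% for Tfcp2l1, against 4.92% in Pcgf-4KO.

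**Figure D4:**
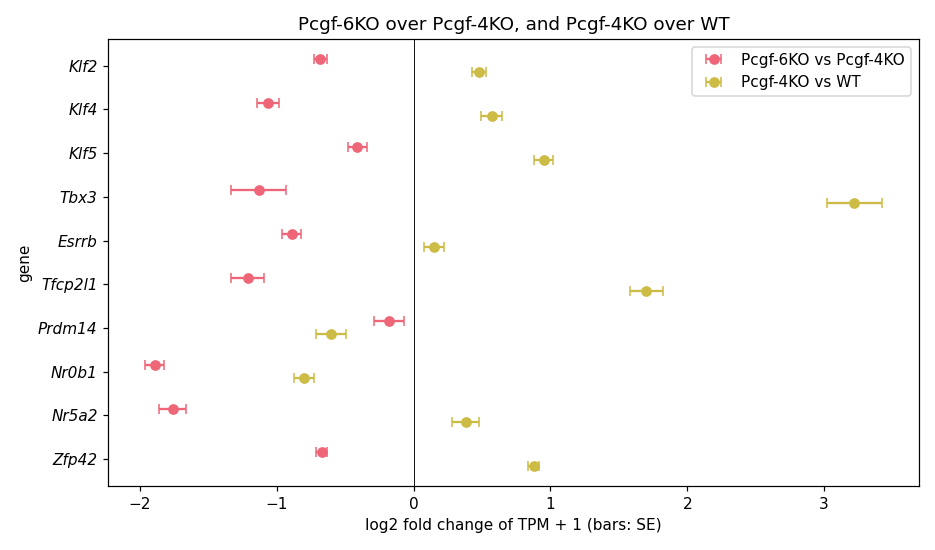
Log2 fold change of TPM + 1 with its SE (x axis) of each gene (y axis) for Pcgf-6KO over Pcgf-4KO and for Pcgf-4KO over WT. The comparisons share the Pcgf-4KO libraries, so the same error enters both with opposite sign. In the first, the 10 values lie between -1.89 and -0.18. In the second, Tbx3 is at 3.22 and Nr0b1 at -0.80.

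Pcgf-4KO and Ring1a/b-dKO, lacking variant Pcgf proteins and both catalytic subunits by their labels, differed in 8 members, 6 higher and 2 lower in Pcgf-4KO, with 37.4% of tested genes called, 15.3% higher and 22.1% lower. The libraries of 9 members did not overlap, against 54.4% of tested genes. Klf4 was 1.32 ± 0.08 higher in Pcgf-4KO (adjusted p = 7.32e-09), Tbx3 1.06 ± 0.20, Tfcp2l1 0.89 ± 0.12, Nr5a2 0.81 ± 0.10 (adjusted p = 1.33e-05), Klf5 0.44 ± 0.07 and Zfp42 0.44 ± 0.04. Esrrb (-0.25 ± 0.07) and Nr0b1 (-0.30 ± 0.07) were lower in Pcgf-4KO. Klf2 (-0.12 ± 0.05, adjusted p = 0.0583) and Prdm14 (-0.13 ± 0.11, adjusted p = 0.373) were not called, though Prdm14 was called without Ring1a/b-dKO replicate 2 (-0.27, adjusted p = 0.0449), and Klf2 with nuclear protein-coding genes only (-0.11, adjusted p = 0.0466) and in a fit of only the groups compared (adjusted p = 0.00938).

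The counts of list genes below stand beside shares over all tested genes of 12.3% higher and 10.8% lower in Ring1a-KO, 34.7% and 17.1% in Ring1b-KO, 48.6% and 15.8% in Ring1a/b-dKO, 47.1% and 17.9% for Pcgf-4KO, then 51.7% and 22.5% for Pcgf-6KO. Transcripts of genes in the signals that act on the members did not move as a block, and the activity of these signals was not measured. Of 13 genes from LIF to Stat3, 3 were higher and 1 lower in Ring1a-KO, 3 and 4 in Ring1b-KO, 7 and 4 in Ring1a/b-dKO, 7 and 6 for Pcgf-4KO, then 5 and 6 for Pcgf-6KO, with medians of 0.12, 0.02, 0.24, 0.31 and -0.15. Gbx2, a homeobox target of Stat3 like Klf4, was at 21.4 ± 1.14 TPM in Ring1a-KO, 13.2 ± 0.582 in Ring1b-KO, 12.4 ± 0.867 in Ring1a/b-dKO, 8.08 ± 0.133 in Pcgf-4KO and 4.21 ± 0.75 in Pcgf-6KO, against 47.5 ± 2.57 in WT. It fell in all 5 comparisons with WT, from -1.11 ± 0.09 in Ring1a-KO to -3.23 ± 0.09 in Pcgf-6KO (adjusted p = 4.39e-14), including Ring1b-KO, where Klf4 and Tfcp2l1 rose. The receptor gene Lifr was at 2.32 ± 1.3 TPM in Pcgf-6KO, against 14.4 ± 3.53 in WT (-2.26 ± 0.30, adjusted p = 5.43e-06), and the ligand gene Lif at 22.5 ± 3.19 TPM in Pcgf-6KO, against 3.35 ± 0.406 in WT (2.43 ± 0.12, adjusted p = 9.13e-11).

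Of 14 genes of the Wnt and Tcf7l1 branch, 1 was higher and 5 lower in Ring1a-KO, 5 and 4 in Ring1b-KO, 8 and 2 in Ring1a/b-dKO, 7 and 3 for Pcgf-4KO, then 7 and 5 for Pcgf-6KO. Tcf7l1, the repressor of Esrrb, was at 71.4 ± 5.8 TPM in Ring1a-KO, 21.1 ± 0.424 in Ring1b-KO, 32.5 ± 0.72 in Ring1a/b-dKO, 35.1 ± 1.46 in Pcgf-4KO and 20.7 ± 3.49 in Pcgf-6KO, against 45.8 ± 2.45 in WT. It was called higher in Ring1a-KO (0.63 ± 0.09, adjusted p = 0.000135). Falls were called in Ring1b-KO (-1.08 ± 0.09, adjusted p = 9.57e-08), Ring1a/b-dKO (-0.48 ± 0.09, adjusted p = 0.000236), Pcgf-4KO and Pcgf-6KO (-1.12 ± 0.09). Esrrb was called higher in Ring1b-KO and Ring1a/b-dKO, not called in Pcgf-4KO and called lower in Pcgf-6KO. Its call higher in Ring1a-KO was lost on leaving out any of the libraries compared. Axin2, a feedback target of Wnt signalling, was at 1.04 ± 0.104 TPM in Ring1a-KO, 13.9 ± 0.663 in Ring1b-KO, 11.3 ± 0.371 in Ring1a/b-dKO, 15.4 ± 0.486 in Pcgf-4KO and 10.6 ± 1.51 in Pcgf-6KO, against 2.34 ± 0.258 in WT, with a rise of 2.30 ± 0.09 in Pcgf-4KO (adjusted p = 5.77e-12). Other genes of the list went both ways. Cdx1 rose by 3.23 ± 0.09 in Ring1a/b-dKO. Lef1 fell by -1.55 ± 0.18 in Pcgf-4KO and -1.26 ± 0.18 in Pcgf-6KO, and Sp5 by -1.02 ± 0.13 in Ring1b-KO.

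Of 14 genes listed as brakes on the naive state, 6 were lower and 1 higher in Ring1a-KO, 9 and 3 in Ring1b-KO, 9 and 4 in Ring1a/b-dKO, 9 and 5 for Pcgf-4KO, then 10 and 4 for Pcgf-6KO, with medians of -0.14, -0.64, -0.77, -0.54 and -0.92, against 0.01, 0.13, 0.28, 0.25 and 0.33 over all tested genes. The list mixes roles, since Tfe3, among the falls in Ring1b-KO (-1.61 ± 0.06), favours the naive state. Its counts and medians are therefore not those of brakes alone. Foxp1 was at 7.32 ± 0.782 TPM in Ring1b-KO and 6.73 ± 1.45 in Pcgf-6KO, against 52.3 ± 0.768 in WT. Among the listed genes that rose, Tfap2c, also used as a trophoblast marker below, changed by 1.41 ± 0.05 in Pcgf-4KO and Flcn by 1.45 ± 0.04 in Pcgf-6KO. Otx2, a driver of the formative state, was at 0.287 ± 0.179 TPM in Pcgf-4KO, against 13.8 ± 0.672 in WT (-3.53 ± 0.10, adjusted p = 1.23e-13), and at 9.94 ± 0.657 in Pcgf-6KO. Of 15 formative genes tested, which share Otx2, Dnmt3a, Dnmt3b, Zic2 and Lin28b with that list, 9 to 11 were lower and 1 to 3 higher in each knockout.

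Among 24 other naive state genes, 10 were higher and 7 lower in Ring1a-KO, 13 and 6 in Ring1b-KO, 7 and 13 in Ring1a/b-dKO, 9 and 9 for Pcgf-4KO, then 5 and 19 for Pcgf-6KO, with medians of 0.16, 0.27, -0.25, 0.00 and -0.92. Tcl1, a coactivator of Akt, was at 84.2 ± 2.65 TPM in Ring1b-KO, against 19.8 ± 0.762 in WT (2.03 ± 0.09, adjusted p = 9.88e-11). Tdh, an enzyme of threonine catabolism on which naive cells depend, was at 16.7 ± 0.52 TPM in Pcgf-6KO, against 271 ± 3.62 in WT (-3.94 ± 0.03, adjusted p = 6.45e-20). Of 11 core pluripotency genes, among them Sall4 and Tdh of the list above, 2, 8, 9, 8 and 10 were called lower in Ring1a-KO, Ring1b-KO, Ring1a/b-dKO, Pcgf-4KO and Pcgf-6KO, and 3, 3, 2, 3 and 1 higher. Nanog was at 387 ± 10.6 TPM in Ring1b-KO and 24.5 ± 0.95 in Pcgf-6KO, against 108 ± 3.5 in WT. Of 12 other Klf genes tested, 4 were higher and 0 lower in Ring1a-KO, 4 and 5 in Ring1b-KO, 5 and 2 in Ring1a/b-dKO, 6 and 2 for Pcgf-4KO, then 5 and 6 for Pcgf-6KO. Klf6 was at 122 ± 15.5 TPM in Pcgf-6KO, 74.1 ± 0.663 in Pcgf-4KO and 55 ± 0.975 in Ring1a/b-dKO, against 17.4 ± 0.434 in WT. It was above Klf4 and Klf5 in each of these knockouts. Of 11 tested paralogs of the other members, 2 were higher and 1 lower in Ring1a-KO, 4 and 2 in Ring1b-KO, 6 and 2 in Ring1a/b-dKO, 6 and 2 for Pcgf-4KO, then 8 and 1 for Pcgf-6KO. Several of the counts for other Klf genes and paralogs lie near the shares over all tested genes.

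**Figure D5:**
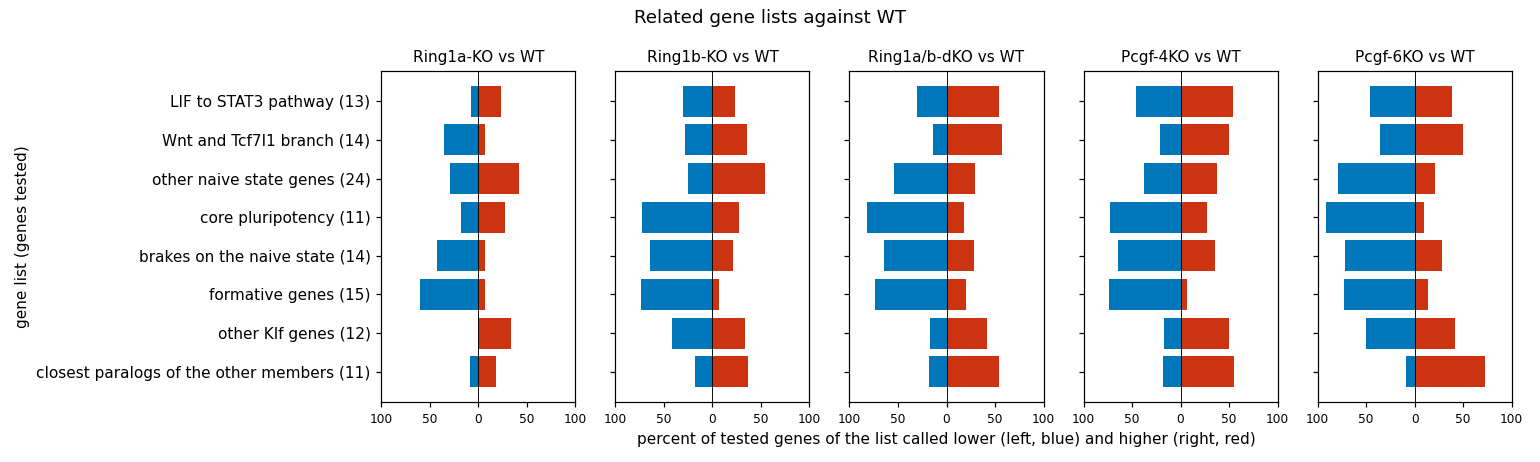
Percent of tested genes of each related list (rows, number tested in brackets) called lower (left, blue) or higher (right, red) in each knockout over WT (panels). Formative genes and the list of brakes on the naive state, which also holds Tfe3, lie mostly to the left in each panel. Of 24 other naive state genes, 13 are lower and 7 higher in Ring1a/b-dKO, and 19 lower and 5 higher in Pcgf-6KO.

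Markers of other cell types moved with the knockouts. The summed level of 11 trophoblast markers was 126 to 142 TPM in Ring1a-KO, 247 to 252 in Ring1b-KO, 1373 to 1391 in Ring1a/b-dKO, 1522 to 1558 in Pcgf-4KO and 5808 to 5911 in Pcgf-6KO, against 103 to 109 in WT, with all 11 at 1 TPM or more in the last 4 knockouts and 7 in WT. For 10 primitive endoderm markers it was 88.8 to 96.6, 155 to 157, 150.1 to 153, 131 to 133 and 203 to 289 TPM in the same order of knockouts, against 51.3 to 53.5 TPM in WT. For 8 germ cell markers it was 73.4 to 79.7, 374 to 386, 419 to 435, 496 to 509 and 392 to 409 TPM, against 109 to 114 TPM in WT. The 8 markers of 2-cell-like cells found in the table summed to 0.08 to 0.16 TPM in Ring1a-KO, 49.8 to 52.4 in Ring1b-KO, 0.43 to 0.75 in Ring1a/b-dKO, 5.45 to 6.69 in Pcgf-4KO and 37.8 to 40.3 in Pcgf-6KO, against at most 0.04 TPM in WT, where 7 were listed at 0. Fibroblast feeder markers summed to 9.09 to 24.6 TPM across the knockouts, against 13.6 to 16.4 in WT. A few genes of high level can carry such a sum. In Pcgf-6KO, Krt18 (2863 ± 52 TPM) and Krt8 (2228 ± 35.4) made up most of the trophoblast sum. Hand1 was at 525 ± 16.5, Eomes at 10.7 ± 1.14 and Cdx2 at 9.33 ± 0.869 TPM there. Col4a1 (140 ± 31 TPM) and Lamb1 (63.2 ± 8.23) made up most of the primitive endoderm sum in Pcgf-6KO, with Gata4 at 13.8 ± 0.813 TPM. Klf5 and Esrrb are also expressed in trophoblast, Tbx3 in endoderm and Prdm14 in germ cells. The part of such cells in the members' levels was not tested.

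Across the 6 groups the members fell into more than one pattern. By the root mean square difference of centred log2 group means, the closest members were Klf5 and Tfcp2l1, at 0.33, and Klf2 and Zfp42, at 0.35, and the farthest were Tbx3 and Nr0b1, at 2.07. Among 11197 other genes with an established symbol and at least 5 TPM in a group, the nearest were Abr and Svil for Klf2 (0.07 and 0.10), Ddx25 and Gca for Klf5 (0.07 and 0.11) and Nsdhl and Pla2g10 for Esrrb (0.07 and 0.08). Lactb2 and B4galt6 were nearest to Tfcp2l1 (0.15 and 0.21), Mcf2 and Serpinb1a to Prdm14 (0.14 and 0.16), Epas1 and Arid5b to Nr5a2 (0.14 and 0.17) and Tet1 and Upp1 to Nr0b1 (0.19 and 0.20). Tet1, a DNA demethylase gene, was at 22.5 ± 8.87 TPM in Pcgf-6KO and 111 to 150 TPM in the group means of the other knockouts, against 138 ± 5.43 in WT. The nearest to Klf4 and Tbx3 lay farther off and were Ankrd36 and Arl14epl (0.50 and 0.56) and Hormad2 and Asz1 (0.39 and 0.41). The distance is not scaled to a gene's span, so it tends to be larger for genes of wide span. Among the members the spans of Tbx3 (4.51) and Klf4 (3.84) were the widest. Hormad2, a meiotic chromosome axis gene, was at 33.8 ± 0.444 TPM in Ring1b-KO and 17.8 ± 0.266 in Pcgf-4KO, against 3.04 ± 0.987 in WT.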

How the data were processed

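RNA of mouse embryonic stem cells was sequenced with a TruSeq library kit, per the labels' protocols, in 18 libraries. The authors deposited TPM for 56551 genes, and each library sums to 1000000 within rounding. TopHat2 2.1.1, RSEM, edgeR and the build GRCm38.p5 are named in the submitters' processing notes, with no role given, and the annotation release is not given in the sources used here. The 6 further columns equal the group means within 3.33e-05 TPM and were not used. Symbols and positions came from GENCODE M21 (GRCm38), which matched 55227 genes. Because 86 genes with a median of 5 TPM or more are listed at 0 in a library, an exact 0 is called listed at 0. No 2 of the 153 library pairs were identical.

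Tests used log2(TPM + 1), on which changes of low genes look smaller. The 17842 genes reaching 1 TPM in 3 or more libraries were kept. Using limma 3.58.1 (R 4.3.3), all 18 libraries were modelled by their group means, leaving 12 residual degrees of freedom, with trended empirical Bayes, two-sided tests and Benjamini-Hochberg adjustment within each of 10 comparisons. The script was tested on simulated data. Members, lists and comparisons were chosen with earlier results of these data known. Named were every member, the 2 non-member genes nearest to each in profile (those of Zfp42 are not reported here), and from each list up to 2 rises and 2 falls. Alternatives were 2 other pseudocounts, other filters, 2 other scalings, protein-coding genes only, no trend, fits of only the groups compared, a replicate block and leaving out libraries.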

Additional observations from a re-analysis of the deposited data

Results flagged for a closer look

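The interaction term of Ring1a and Ring1b in the limma fit was called for 9 members (log2 scale, double knockout minus the sum of the single knockouts). The differences were 0.40 for Klf2, -0.65 for Klf4, -0.92 for Tbx3, -0.39 for Esrrb, -0.92 for Tfcp2l1, -2.04 for Prdm14, 0.27 for Nr0b1, -0.70 for Nr5a2 and -0.38 for Zfp42. The call for Nr0b1 was lost on leaving out any of 7 libraries and with both other scalings, and that for Tbx3 with a pseudocount of 0.1 TPM (-0.69). With 48.7% of tested genes called in this comparison, a call is common. Groups of 3 libraries were not searched for outlying libraries.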

How the results depend on the processing

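Over the alternatives tried, member results in a comparison kept their direction and call in 1619 of 1690 cases, with 41 calls lost, 19 gained and 11 directions reversed. Median ratio scaling reversed Esrrb (-0.17) in Pcgf-4KO and Zfp42 (-0.15) in Pcgf-6KO against WT, and Nr0b1 (-0.15) and Zfp42 (-0.14) in Ring1a/b-dKO against Ring1b-KO. Quantile normalization reversed Zfp42 in Pcgf-6KO against WT (-0.04) and in Ring1a/b-dKO against Ring1b-KO (-0.05), Nr0b1 there too (-0.10) and Prdm14 in Pcgf-4KO against Ring1a/b-dKO (0.07). With nuclear protein-coding genes only, Nr0b1 (-0.03) and Zfp42 (-0.01) reversed in Ring1a/b-dKO against Ring1b-KO, where Nr0b1 ran from -0.01 to 0.07 on leaving out 1 library. The cause was not tested. In Ring1a-KO against WT, leaving out 1 library left 5 to 7 members called, and leaving out Ring1a-KO replicates 2 and 3 left 5 members and 2169 genes, against 8 and 4123. The other totals of called members or genes stayed within 1.5 times, but not those of 1 direction: members called higher in Pcgf-6KO against WT were 2 with median ratio scaling or quantile normalization, against 4. Fits of only the groups compared lost Tbx3 in Ring1a-KO (adjusted p = 0.175) and Tfcp2l1 in Pcgf-6KO (0.0507) against WT and gained Tfcp2l1 in Ring1a-KO (0.0143), Nr5a2 in Ring1b-KO (0.0472) and Esrrb in Pcgf-4KO (0.00747). The share of called genes that were higher was 66.5% to 75.5% in the comparisons of Ring1b-KO, Ring1a/b-dKO, Pcgf-4KO and Pcgf-6KO with WT, of Ring1b-KO with Ring1a-KO and of Ring1a/b-dKO with Ring1b-KO and in the interaction, and 48.5% to 52.9% with median ratio scaling, where the median over all genes was -0.01 to 0.03 in place of 0.12 to 0.33. Quantile normalization moved that share to 41.3% from 54.6% in Pcgf-6KO against Pcgf-4KO, and to 51.3% from 40.8% in Pcgf-4KO against Ring1a/b-dKO. The replicate numbers are not known to pair the libraries, and deviations of same-numbered libraries had correlations of -0.109 to 0.0714. With the replicate number as a block, 8 members were called in Ring1a-KO, with Esrrb lost and Prdm14 gained, and no other member call changed. Depth is unknown, so no counting error is given.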
